A study of Mus musculus with 2 samples.

Results

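The RNA of 32 pancreatic digestive enzyme genes was followed through single-cell libraries of mouse islets. The genes were taken by name from a list of enzymes and enzyme granule proteins, and all 32 were found among the 32285 genes of the files. The study placed diet-induced obese (DIO, as the labels call them) mice for 2 weeks on saline or on CDS, an agent given at 10 mg/kg. The labels do not say what CDS is, and the series title names an antagonist of the alpha2A-adrenergic receptor. Collagenase (10 mg/ml) was sent through the pancreatic duct, the tissue was digested for 20 min at 37 °C, and islets were collected under a stereomicroscope, so both groups went through the same enzyme digestion, and no cell sort is stated. Strain, sex, age, diet and the number of mice behind each library are not given. Each group had 1 library, so no difference below has a replicate check, and every 95% interval covers counting error only.

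Acinar cells make up most of the exocrine pancreas and secrete enzymes that digest protein, fat, starch and nucleic acid in the gut. Proteases are stored in granules as inactive precursors, and trypsin, once cut free in the gut, activates the others. Islet hormone cells, endothelial cells and immune cells are not known to make most of these enzymes, but RNA released from broken acinar cells can enter the droplets of other cells during an islet preparation, where it is called free or ambient RNA. Acinar genes share a control region in which the PTF1 complex, a pancreas transcription factor, recognises an E-box and a nearby second motif.

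Several trypsinogens differed widely between the libraries, so the coding sequence of 6 of them around the activation site is shown first. Each line holds 45 coding bases that run 5′ to 3′ on the coding strand, read from GENCODE transcripts. The site, codons 6 to 10 of each line, encodes 4 aspartates and a lysine, after which the enzyme is cut free. Capitals mark bases that differ from Try5.
Try5: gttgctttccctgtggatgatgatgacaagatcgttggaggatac
Try4: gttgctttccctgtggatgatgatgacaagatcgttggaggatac
Prss2: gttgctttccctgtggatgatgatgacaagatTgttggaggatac
Prss3: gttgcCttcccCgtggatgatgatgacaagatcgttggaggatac
Try10: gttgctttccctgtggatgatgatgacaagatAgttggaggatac
2210010C04Rik: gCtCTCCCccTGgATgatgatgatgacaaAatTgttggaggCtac
Try4 and Try5 were identical over this stretch, Prss2 differed from Try5 by C33T and Try10 by C33A, counted from the first base of the line. Over the whole coding length of 741 bases, Try4 and Try5 shared 97.4% of bases and Prss2 and Try5 90.3%. Try4 (chromosome 6, 41302269 to 41305532, plus strand) and Try5 (chromosome 6, 41311233 to 41316841, minus strand, both mm10) lie next to each other.

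Promoter sequences from RefSeq (GRCm38.p6) matched 24 of the 32 genes and gave 25 promoters. A trypsinogen and an elastase promoter are shown as the 250 bases before the start, because both genes were among the most abundant. Capitals mark CACCTG and TTTCCCA, the letters of the E-box and of the second motif, searched on both strands.
Prss2, chr6:41521526-41521775, plus strand: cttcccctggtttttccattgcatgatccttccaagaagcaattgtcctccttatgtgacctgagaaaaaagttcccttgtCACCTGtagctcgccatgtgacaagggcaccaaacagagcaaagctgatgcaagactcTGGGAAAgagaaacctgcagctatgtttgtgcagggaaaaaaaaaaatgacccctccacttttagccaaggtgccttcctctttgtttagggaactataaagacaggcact
Cela3b, chr4:137430521-137430770, minus strand: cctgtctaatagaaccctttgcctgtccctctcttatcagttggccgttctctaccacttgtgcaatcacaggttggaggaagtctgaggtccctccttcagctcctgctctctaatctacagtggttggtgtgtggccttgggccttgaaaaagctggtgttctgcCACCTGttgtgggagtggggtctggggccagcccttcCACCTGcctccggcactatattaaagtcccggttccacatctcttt
CACCTG was in 14 of the 25 enzyme promoters (56.0%) against 17.2% of 32851 promoters of the same length, and TTTCCCA in 6 (24.0%) against 6.82%. Both were in 4 enzyme promoters against 1.17% of all. A match describes these letters and is not a bound site.

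Not every member could be counted equally well. Reads of droplet libraries come from the 3′ ends of transcripts, and Cell Ranger, the counting program, credits only reads that fit a single gene. All 411 windows of 90 bases in the last 500 bases of the Amy2a2 transcript, a pancreatic amylase, also occur in Amy2a3 and Amy2a4, and Amy2a2 had 5 (saline) and 11 (CDS) UMIs, unique molecular identifiers that each stand for 1 captured molecule. Ctrc, a chymotrypsin-like protease whose annotated span overlaps Cela2a, shared 221 of 1004 windows with it and had 39 and 40 UMIs. Prss3, a trypsinogen, shared 226 of 411 windows with other trypsinogen genes and had 77 and 57 UMIs. Cela3a had 4 and 2 UMIs, with 27 of 411 windows shared with Cela3b. Try4 and Try5 shared 114 of 411 and 169 of 466 windows with each other, and Gm2663 and 1810009J06Rik, a pair of trypsinogen-like genes, shared 321 of 411 and 316 of 411. Levels of these genes, and how their UMIs divide within each pair, are therefore uncertain. The part of shared windows in any level was not tested.

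The saline library held 12453 barcodes and the CDS library 7268, with 25 barcode sequences in both. Of these 10977 and 6159 were kept after the filter (500 genes, 1000 UMIs, 20% mitochondrial) and the removal of 614 and 256 called doublets. Their median depth was 9794 UMIs in saline and 19069 in CDS, so CDS cells were deeper. The label calls the samples islet b cells, but alpha-like, delta-like, endothelial-like and immune cells were present as well. Cells were clustered without the enzyme genes and named from markers. The cluster called PP-like was mixed, with 184 of 438 saline and 152 of 364 CDS cells at 1% or more Ppy.

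Cells rich in enzyme RNA were rare in both libraries. At least 20% of UMIs came from the 32 genes in 46 saline cells, or 0.419% (0.307 to 0.559, exact Clopper-Pearson 95% interval), and in 32 CDS cells, or 0.520% (0.356 to 0.733). These are called high-share cells below. The intervals overlap under this filter, but a looser filter (200 genes, 500 UMIs, 25% mitochondrial) gave 1.07% and 2.79%. A further 81 saline and 171 CDS barcodes at 20% or more had failed the filter. The share just inside the limit was 20.5% in saline and 20.7% in CDS, with 19.3% and 17.9% just outside. Enzyme RNA made up a median of 42.1% of UMIs per saline cell (highest 81.5%) and 44.3% per CDS cell (highest 65.9%). The median depth of these cells was 6507.5 and 9258.5 UMIs, with medians of 1110.5 and 1063 genes.

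These cells carried acinar RNA beside that of other cells. All 7 acinar markers that are not members were found in both libraries, and together they made up 1.96% and 3.54% of UMIs. The part of each marker in these sums is not given. Reg1, a secreted acinar gene, alone had 7458 of the 418503 UMIs of saline and 20358 of the 619349 UMIs of CDS high-share cells. The sums therefore do not show 7 markers at similar levels, and may come mostly from 1 gene. Of the saline cells 40 of 46, and of the CDS cells 19 of 32, clustered with ductal-like cells, whereas 12 CDS cells and 2 saline cells clustered with beta-like cells. A beta-like cluster, cluster 12 (119 saline and 339 CDS cells), was itself shallow, at 0.388 of the library median depth. Its 10 top genes included Try4, Prss2, Cela2a, Cela3b and Pnlip. Which beta-like cluster the high-share cells fell in is not given. Beta markers made up 3.75% and 5.56% of the UMIs of high-share cells, and hormones at least 10% in 2 and 3 cells. Ins1 and Ins2, the insulin genes, were 3.15% of UMIs in saline and 4.96% in CDS high-share cells. They were 4.28% and 2.13% in T-like and 3.35% and 6.18% in endothelial-like cells, so the pooled level was not above that of all other types. Stromal, dendritic, T-cell and B-cell markers were at or near 0. A high-share barcode may hold an acinar cell, a pair of cells or acinar debris, and which of these it was could not be told apart.

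A few cells decided the pooled values, as 10 saline and 4 CDS cells held 50% of the enzyme UMIs. The largest cell alone held 12.2% of them in saline and 20.7% in CDS. High-share cells held 61.0% of the 317414 enzyme UMIs of the saline library and 65.3% of the 457167 of the CDS library.

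**Figure D1:**
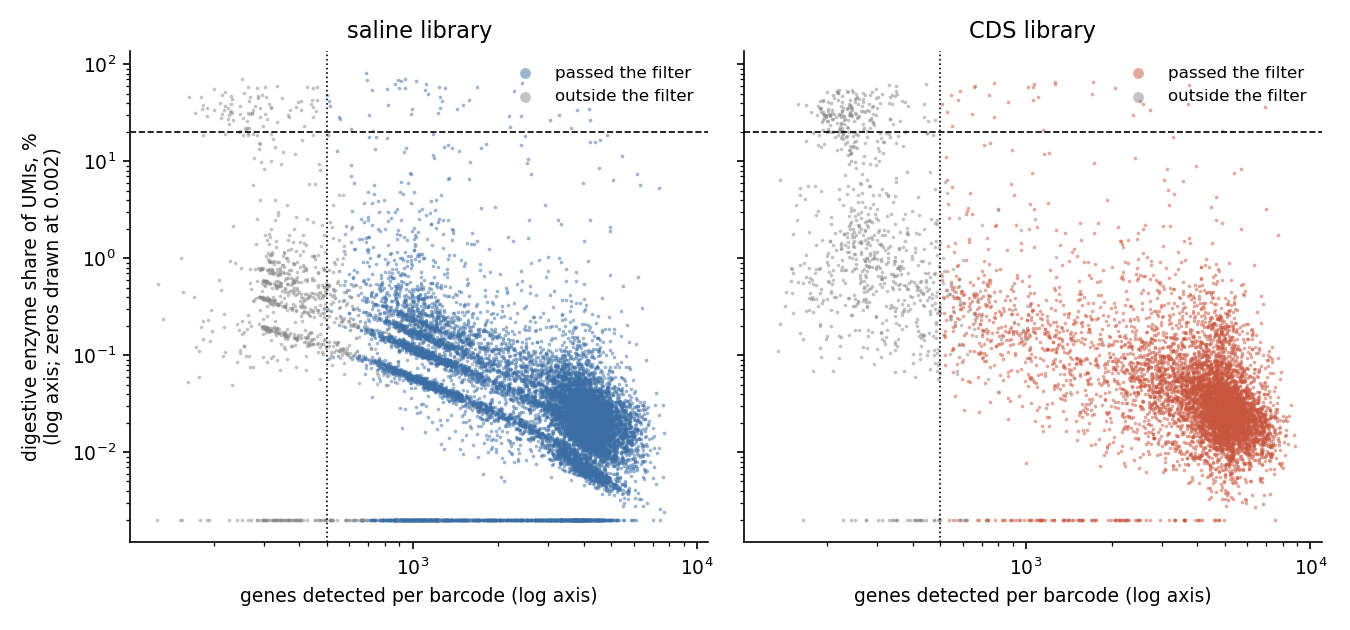
Each point is a barcode, with genes detected on the x axis and the share of UMIs from the 32 enzyme genes on the y axis (both log axes, zeros drawn at 0.002). The dashed line marks 20% and the dotted line 500 genes, and above the dashed line 81 saline and 171 CDS barcodes lie outside the filter in grey.

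Trypsinogens, precursors of trypsin, were 47.0% of enzyme UMIs in saline high-share cells and 31.2% in CDS high-share cells. Prss2, an anionic trypsinogen, stood at 66602 CPM, UMIs per 1000000 UMIs of these cells, in saline and 66757 in CDS. Its share of enzyme UMIs ran from 6.97% to 23.6% over saline cells and from 3.34% to 26.5% over CDS cells, so the ranges overlapped widely. Try5 stood at 118730 CPM in saline and 34869 in CDS. Its share of enzyme UMIs was a median of 33.3% per saline cell (lowest 1.92%, highest 58.1%) and 6.08% per CDS cell (lowest 1.07%, highest 31.7%). The pooled share of Try5 was thus 0.282-fold in CDS (0.277 to 0.286, exact 95% interval for a ratio of Poisson counts), although single cells of both libraries overlapped.

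Try4 went the other way, from 14270 CPM in saline to 35791 in CDS, or 2.41-fold as a share of enzyme UMIs (2.34 to 2.48). Its median share per cell was 1.44% in saline (0 to 8.02%) and 5.65% in CDS (1.51 to 14.5%). The less abundant 2210010C04Rik, a further trypsinogen, stood at 14523 and 12494 CPM. Try10 had 399 and 315 UMIs in these cells. Gm2663 had 452 UMIs in saline and 16 in CDS, and 1810009J06Rik 385 and 3. In saline 2 high-share cells held 50% of the Gm2663 UMIs and 4 held 50% of those of 1810009J06Rik, so both levels rest on very few cells.

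Elastases and chymotrypsins, which cut proteins at small and at aromatic residues, were 35.2% of enzyme UMIs in saline and 38.2% in CDS. Ctrb1, chymotrypsinogen B (chromosome 8, 111686519 to 111691010, minus strand), was the most abundant member summed over both libraries, at 113464 and 111417 CPM. Its share per cell ran from 5.47% to 39.9% in saline and from 11.2% to 35.2% in CDS. Cela3b, an elastase, stood at 18707 and 25454 CPM. Cela2a, a further elastase, stood at 10956 and 22270 CPM, and Cela1 at 14968 and 15471 CPM. Ctrl, a chymotrypsin-like protease, had 1976 and 5961 UMIs. Ctrb1 and Cela1 were thus close between the libraries, while Cela2a took 1.95-fold more of the enzyme UMIs in CDS (1.89 to 2.02).

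Carboxypeptidases, which remove amino acids from protein ends, were led by Cpa1 at 19739 CPM in saline and 18452 in CDS. Cpb1 had 2214 and 4586 UMIs and Klk1, a tissue kallikrein, 2315 and 3358. With Klk1 the group was 6.61% and 6.49% of enzyme UMIs.

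Lipases and colipase, which digest fat, were 5.62% of enzyme UMIs in saline and 15.04% in CDS. Clps, colipase, the cofactor that holds pancreatic lipase on fat droplets, stood at 5931 CPM in saline and 28769 in CDS, or 4.66-fold as a share of enzyme UMIs (4.46 to 4.86). Its median share per cell was 0.733% in saline (0.0996 to 5.02%) and 3.82% in CDS (0.259 to 12.1%). Pnlip, pancreatic lipase itself, stood at 6667 and 23131 CPM, or 3.33-fold (3.20 to 3.47). Cel, the bile salt-activated lipase, took 2.62-fold more in CDS (2.40 to 2.85), Pnliprp1 1.30-fold (1.25 to 1.35) and Pnliprp2 1.27-fold (1.14 to 1.42). Pla2g1b, a secreted phospholipase, had 185 and 585 UMIs. The pooled share of every lipase gene was therefore higher in the CDS high-share cells, which is a difference between pools of 46 and 32 cells.

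Amylase was almost missing from the counts. Amy1, the amylase gene best known from salivary gland, had 47 and 45 UMIs in high-share cells. Amy2a5, a pancreatic amylase outside the 32 genes, had 28 and 57, with 155 of 822 windows shared with other amylase genes. Rnase1, a secreted ribonuclease, had 1344 and 4158 UMIs.

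Among granule and inhibitor proteins, Sycn, the granule membrane protein syncollin, stood at 11759 CPM in saline and 22438 in CDS. Zg16, a zymogen granule lectin, had 960 and 5822 UMIs, or 3.93-fold more of the enzyme UMIs in CDS (3.67 to 4.22). Spink1, which inhibits trypsin, had 2822 and 1522 UMIs, or 0.350-fold (0.328 to 0.372). Gp2, a granule membrane glycoprotein, had 351 and 505 UMIs. Dmbt1, a mucosal scavenger receptor protein, had 414 and 957.

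**Figure D2:**
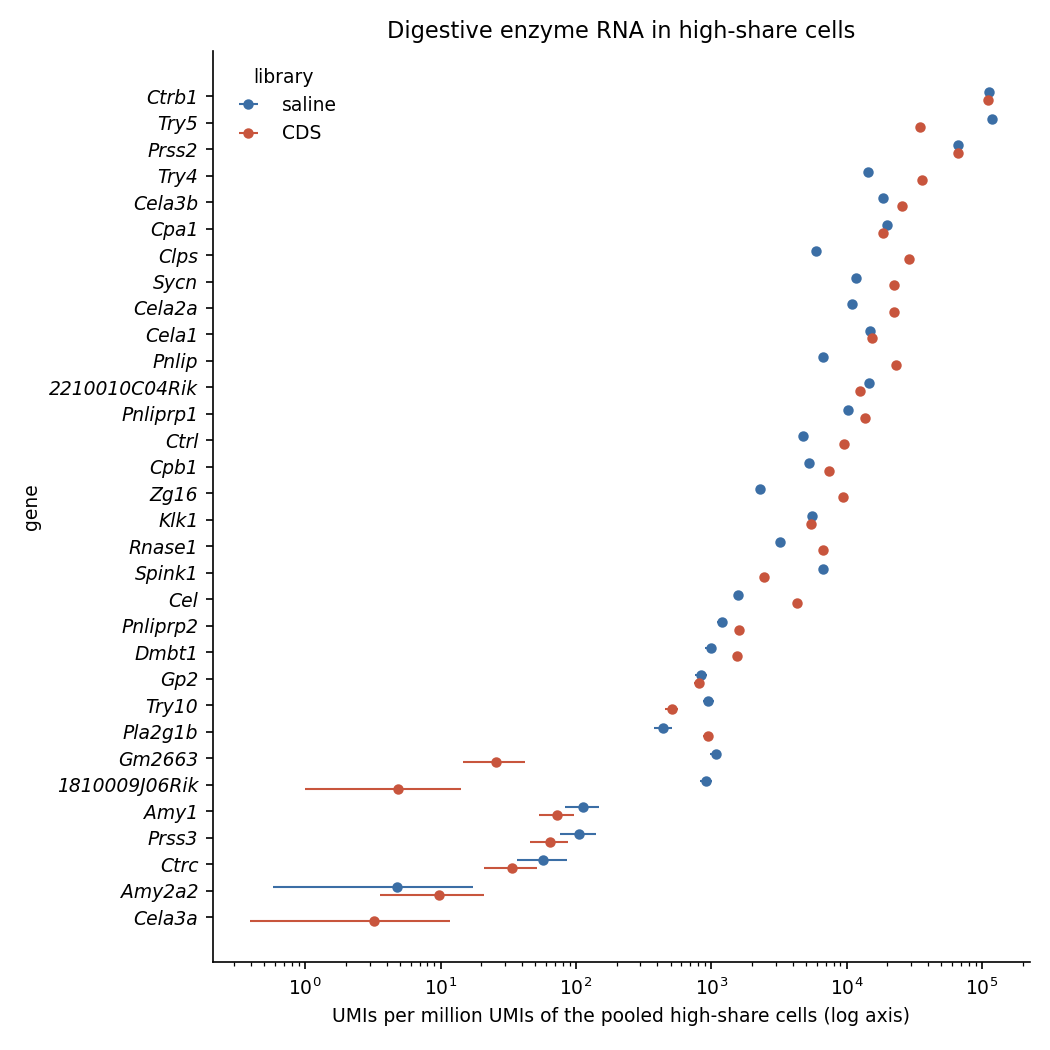
Points give each gene's CPM in the pooled high-share cells (log axis) in the saline library (46 cells, blue) and the CDS library (32 cells, red), with exact Poisson 95% intervals. Genes are ordered by the sum over both libraries. Try5 and Spink1 sit higher in saline, and Try4, Clps, Pnlip and Zg16 higher in CDS.

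Enzyme RNA was also found in most cells of other types. High-share cells are left out of all classes from here on. In the saline library a beta-like cell held a median of 3 enzyme UMIs (quartiles 2 and 5, 4522 cells), and an alpha-like cell 2 (1 and 4, 938 cells). Delta-like cells held 3 (2 and 5, 541 cells). Endothelial-like (355 cells), macrophage-like (164), B-like (1188) and T-like cells (1257) each held a median of 2. The median was thus 2 or 3 in every one of these classes, although median depth ran from 1762 UMIs in B-like to 15948.5 in beta-like cells.

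In the CDS library a beta-like cell held a median of 7 (4 and 11, 3590 cells), an alpha-like cell 5 (3 and 9, 915 cells) and a delta-like cell 7 (4 and 11, 438 cells). Endothelial-like (267 cells) and macrophage-like cells (157) each held a median of 5. B-like cells, of which there were 35, held 5, and the 11 T-like cells held 3. Each of these medians was higher than in the saline library. Median depth was also greater in CDS, at 27437 UMIs for beta-like, 11663 for alpha-like, 7819 for endothelial-like and 9570 for macrophage-like cells, against 15948.5, 8241.5, 5238 and 5233 in saline.

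As a share of all UMIs the classes differed more. In saline, enzyme RNA was 0.0396% of UMIs in beta-like (exact Poisson 95% interval 0.0392 to 0.0401), 0.0541% in alpha-like, 0.0378% in endothelial-like, 0.110% in T-like and 0.163% in B-like cells. In CDS it was 0.0473% in beta-like (0.0468 to 0.0477), 0.108% in alpha-like, 0.171% in endothelial-like and 0.122% in macrophage-like cells. Insulin RNA, the most abundant RNA of the islet, also reached other cells. T-like cells of the saline library held a median of 92 UMIs of Ins1 and Ins2 beside 2 of all 32 enzyme genes.

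A small number of cells held much of this RNA. Cells with 1% or more enzyme RNA were 1.15% of saline beta-like cells and held 40.3% of their enzyme UMIs, and in CDS they were 0.864% and held 18.6%. In CDS endothelial-like cells, 5 of 267 held 54.7%, and a single cell 36.5%. In saline no endothelial-like cell reached 1%. A single delta-like cell held 36.7% of the enzyme UMIs of that class in saline and 33.9% in CDS. Summed values of small classes therefore depend on a few barcodes, and values for cells under 1%, an alternative chosen after seeing the data, are given beside them. Whether such a barcode held part of an acinar cell was not tested.

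**Figure D3:**
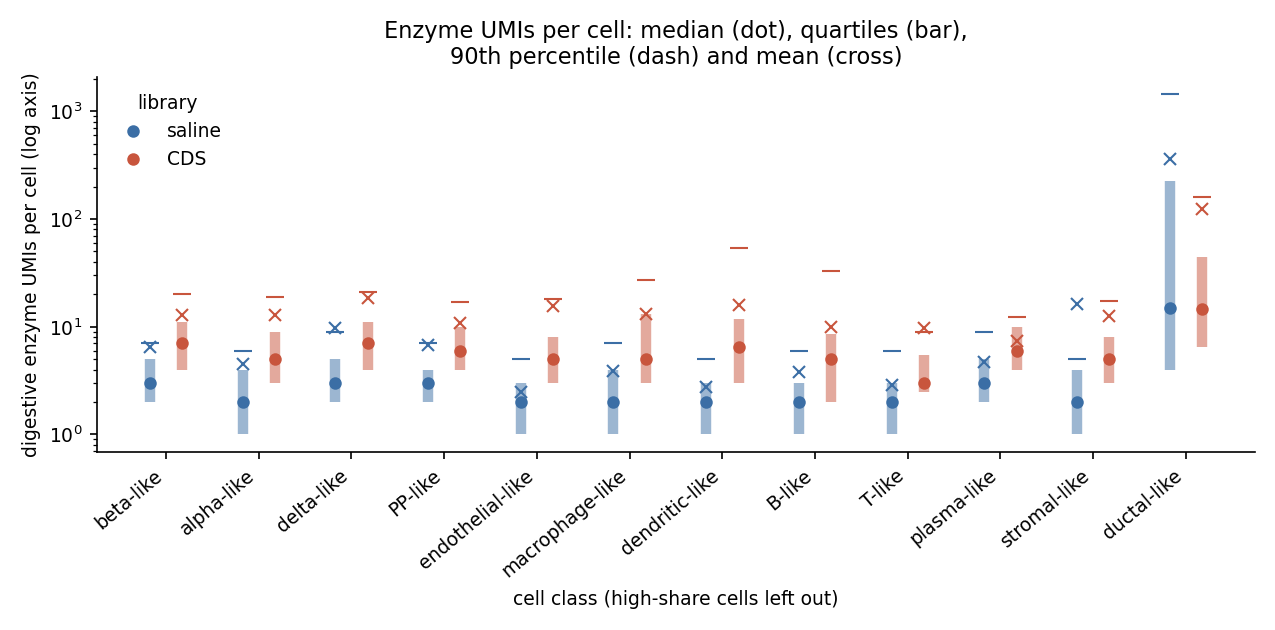
Enzyme UMIs per cell (log axis) are shown for each cell class and library, with the median as a dot, the quartiles as a bar, the 90th percentile as a dash and the mean as a cross. Outside ductal-like cells (15 and 14.5), saline medians (blue) lie at 2 or 3 and CDS medians (red) at 3 to 7, and means far above the median mark classes with a few enzyme-rich cells.

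The share of cells with an enzyme UMI was near its ceiling without thinning and differed more at a common depth. Without thinning, 94.1% of saline and 98.6% of CDS beta-like cells had an enzyme UMI. When each cell was thinned to 2000 UMIs, 35.3% of 4422 saline beta-like cells (33.9 to 36.7, exact Clopper-Pearson) and 48.0% of 3497 CDS beta-like cells (46.3 to 49.7) had one. The thinning left out 100 and 93 shallower cells. Alpha-like cells were at 51.3% and 64.7%, and endothelial-like cells at 50.3% and 72.5%. In saline 78.5% of 748 T-like cells (75.3 to 81.4) had an enzyme UMI at this depth, with 509 cells left out, compared with 86.2% unthinned. T cells are a type that should lack these genes, and the beta-like share lay below theirs. Both classes held a median of 2 or 3 enzyme UMIs per cell, and beta-like cells, at a median depth of 15948.5 UMIs against 2162, lost more of them in thinning. No order of expression is read from these shares.

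In several non-acinar classes enzyme UMIs came in nearly the same proportions as in the high-share cells of the same library, and in others less closely. For each class the expected count of a gene was its part in the high-share cells, scaled by the median over genes. A gene stood apart at 2-fold or more with at least 20 UMIs and an interval without 1. In beta-like cells 25 of 28 genes in saline and 25 of 26 in CDS lay within 2-fold, and in T-like saline cells 19 of 21. In endothelial-like cells 12 of 12 and 20 of 20 did so, and in alpha-like cells 19 of 21 and 23 of 24. The part was lower in saline B-like (17 of 21), saline macrophage-like (7 of 11) and CDS delta-like cells (16 of 23). It was also lower in saline stromal-like (14 of 20) and saline ductal-like cells (17 of 26). Over genes with at least 100 UMIs in high-share cells, the order of enzyme UMIs in beta-like cells followed theirs with a Spearman rho of 0.98 in saline (27 genes) and 0.98 in CDS (25 genes). Both share a library and its depth, and genes are not replicates.

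The library difference in the high-share cells carried over as well. Trypsinogens were 45.0% of enzyme UMIs in saline beta-like cells and 31.4% in CDS beta-like cells, and lipases and colipase 7.07% and 13.0%. 1810009J06Rik had 27 UMIs in saline beta-like cells and 0 in CDS, and the exact interval of the ratio ran from 0 to 0.143. With the CDS count set to a floor of 3 UMIs the ratio would be 0.108, which lies inside that interval and is not an upper limit. This gene had too few UMIs to be measured in the comparison of ratios below.

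Amy1 did not follow the mix. It had 322 UMIs in saline beta-like cells against 7.69 expected, or 41.9 times (30.8 to 58.1), and 225 in CDS against 6.97, or 32.3 times (23.4 to 45.5). Its UMIs were spread over 283 of 4522 saline and 206 of 3590 CDS beta-like cells, with at most 4 UMIs in a cell. Alpha-like cells had 91 and 138 UMIs, or 80.0 and 78.6 times. T-like and B-like saline cells had 63 and 53, or 61.8 and 40.3 times. Only 5.48% of all Amy1 UMIs of the saline library and 7.67% of the CDS library lay in high-share cells, whereas for Ctrb1 it was 61.7% and 64.9%.

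Cela1 stood apart in delta-like cells, the somatostatin cells. It had 801 UMIs in saline against 162 expected, or 4.95 times (4.59 to 5.33), and 630 in CDS against 194, or 3.25 times (2.99 to 3.52). The UMIs lay in 235 of 541 and 173 of 438 cells, with at most 24 and 51 in a cell. In cells under 1% enzyme RNA the excess was 10.5 and 4.43 times. Cela1 stood at 134 and 87.3 plain CPM in delta-like cells.

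Other departures differed in how many cells carried them. In CDS delta-like cells 1 cell held 1059 of 1334 Try5 UMIs and 1036 of 1780 Prss2 UMIs, and neither stood apart in cells under 1%. In saline B-like cells Try5 was at 0.411 of its expected count (0.378 to 0.446) and Cel at 2.86 (2.12 to 3.79), and both stood apart in cells under 1% as well. The Try5 UMIs lay in 343 of 1188 cells. Pnlip was at 2.09 (1.77 to 2.45) in saline B-like cells, and did not stand apart in cells under 1%. Pooled over all 10762 kept saline cells under 1%, Try5 was at 0.578 (0.563 to 0.593), Cel at 1.85 and Pnlip at 1.75. The direction of these departures was thus not particular to B-like cells. In saline beta-like cells Dmbt1 was at 2.13 (1.75 to 2.58), and 1810009J06Rik at 0.429 (0.279 to 0.634). In CDS macrophage-like cells Klk1 was at 0.424 (0.194 to 0.806).

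Among the classes outside the hormone, endothelial and lymphoid ones, ductal-like cells departed most often. Dmbt1 had 564 UMIs in 72 saline ductal-like cells against 27.8 expected, or 20.3 times (17.9 to 23.1), but 2 cells held 50% of them. Spink1 had 1399 UMIs against 189, or 7.39 times (6.93 to 7.89), with 4 cells holding 50%. In CDS ductal-like cells Dmbt1 was at 3.32 times (2.47 to 4.37). Of the saline ductal-like cells 24 of 72 had 1% or more enzyme RNA, and they held 97.8% of the enzyme UMIs of that class. None of the 9 genes apart in saline ductal-like cells stood apart in those under 1%. Spink1 had 14 UMIs there, Klk1 5, Dmbt1 2, Cel 2 and Gp2 0. That is too few for the rule of 20 UMIs, so those cells cannot decide for these genes. Prss2 was at 0.940 there, Ctrb1 at 0.712, Try4 at 1.11 and Cela1 at 1.91. The departures describe class sums that come mostly from the 24 cells at 1% or more. In saline alpha-like cells Cel was at 2.24, and in saline T-like cells Klk1 at 0.458. In saline macrophage-like cells Cela2a, Pnlip, Clps and Sycn were at 2.29 to 3.70, on 23 to 44 UMIs each. In saline ductal-like cells Prss2, Ctrb1, Gp2 and Klk1 were at 2.01 to 2.99, and Try4, Cela1 and Cel at 0.272 to 0.486. In CDS ductal-like cells Gp2 was at 2.33 and Rnase1 at 0.396. In saline dendritic-like cells Try5 was at 0.390. Among saline stromal-like cells a single cell held 82.5% of the enzyme UMIs, and Rnase1, Spink1, Gp2 and Dmbt1 were at 2.09 to 5.36 and Cela2a and 2210010C04Rik at 0.355 and 0.451. Clps was at 2.71 in CDS stromal-like cells, where 1 cell held 83 of 114 UMIs. In unnamed cells Amy1 was at 34.3 in saline, and Rnase1 at 0.397 in CDS. In CDS delta-like cells Spink1 was at 2.04 and Dmbt1 at 3.72, each with 1 cell holding 50%, and Rnase1 at 0.416. The mixed PP-like cells of the saline library had Pnlip at 2.16, Cel at 3.12 and Amy1 at 62.1, and those of CDS Amy1 at 46.1.

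**Figure D4:**
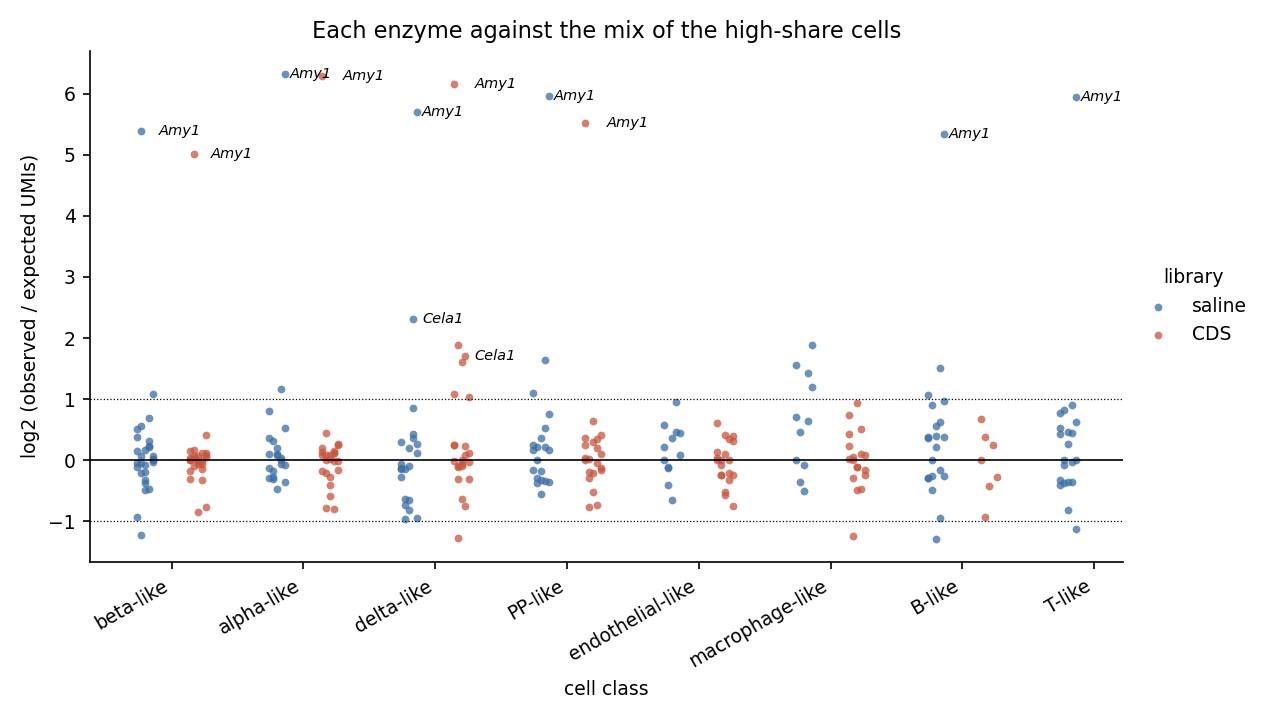
Each point is a gene with at least 20 observed or expected UMIs, placed by log2 of its observed over expected UMIs in a class, where the expected count follows the mix of that library's high-share cells. Dotted lines mark 2-fold. Most points lie between them, and Amy1 and, in delta-like cells, Cela1 lie above.

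Enzyme RNA was compared between CDS and saline in the 6 classes with at least 100 cells in each library. Class sums were scaled by TMM, a scaling that assumes most genes do not differ, and a gene was measured if it had 50 or more UMIs in all and some in each library. It was called higher or lower past 1.5-fold. In beta-like cells 15 of 26 measured members were higher in CDS and 2 lower, against 14.8% of 15062 genes higher and 8.86% lower. In alpha-like cells 19 of 22 were higher and 2 lower (8.76% and 3.79% of 11913 genes), and in delta-like cells 12 of 22 and 1 (8.67% and 5.63% of 11517 genes). In endothelial-like cells 17 of 17 were higher and none lower (10.5% and 9.58% of 8710 genes), and in macrophage-like cells 11 of 13 and none (13.9% and 10.3% of 6871 genes). In the mixed PP-like cells it was 10 of 21 and 3 (17.5% and 10.3% of 10934 genes). A class's libraries are 1 against 1, so these calls compare libraries and have no test.

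The median log2 ratio of the measured members was 0.84 in beta-like, 1.23 in alpha-like, 0.75 in delta-like, 0.50 in PP-like, 2.64 in endothelial-like and 1.15 in macrophage-like cells, while that of all genes was 0.02 to 0.05. Without TMM (plain CPM) the median of all genes moved to -0.33 in beta-like cells and to between -0.24 and -0.07 in the others. At that setting 9 members were higher in beta-like cells. The share of all genes past the limit without TMM is not given, so this count describes the setting only. All UMIs summed, enzyme RNA was 1.55-fold in CDS in beta-like cells (1.53 to 1.58), 2.16-fold in alpha-like (2.08 to 2.24), 5.09-fold in endothelial-like (4.73 to 5.49) and 2.33-fold in macrophage-like cells (2.13 to 2.55). It was 1.42-fold in delta-like (1.37 to 1.47) and 1.42-fold in PP-like cells (1.35 to 1.49). Over cells under 1% enzyme RNA the 6 ratios were, in the same order, 2.12, 2.08, 2.37, 2.32, 1.62 and 2.41. With the limit for high-share cells at 40%, the ratio of delta-like cells turned to 0.573 and that of endothelial-like cells fell to 1.26. A larger amount of free RNA, deeper capture per droplet and a change in the cells cannot be told apart with 1 library in each group.

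Among trypsinogens, Try4 was higher in CDS in each of the 6 classes. In beta-like cells it had 844 and 3535 UMIs, or 10.0 and 41.0 CPM, a ratio of 4.08 (3.79 to 4.41). It was at 5.71 in alpha-like (4.70 to 6.99), 4.88 in delta-like, 15.3 in endothelial-like (9.81 to 25.1) and 4.14 in macrophage-like cells (2.70 to 6.61). In endothelial-like cells 1 CDS cell held 120 of 297 Try4 UMIs. In cells under 1% the Try4 ratio was 6.66 there and lay between 4.86 and 6.66 over the 6 classes. Try5 was lower in CDS in beta-like cells, at 85.1 and 38.7 CPM, a ratio of 0.455 (0.437 to 0.474). It was at 0.619 in alpha-like and 0.465 in PP-like cells, between the limits in delta-like (0.824) and macrophage-like cells (0.842), and higher in endothelial-like cells (1.52). In saline beta-like cells 9 of 4522 cells held 50% of the Try5 UMIs, and 1 cell held 1610 of 7157. In cells under 1%, Try5 lay between 0.615 (macrophage-like) and 0.943 (endothelial-like) over the 6 classes. It was at 0.725 in beta-like and 0.806 in alpha-like cells under 1%, neither past the 1.5-fold limit. Prss2 was at 50.1 and 76.5 CPM in beta-like cells, a ratio of 1.53 (1.47 to 1.59), and at 5.02 in endothelial-like cells, where 1 CDS cell held 230 of 599 UMIs. Over cells under 1% its ratio was 2.27 (beta-like) and 2.13 (endothelial-like).

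Among elastases and chymotrypsins, Ctrb1 was higher in all 6 classes. It stood at 71.5 and 130.0 CPM in beta-like cells, a ratio of 1.82 (1.76 to 1.88), and at 4.42 in endothelial-like and 2.74 in macrophage-like cells. In cells under 1% its ratio lay between 1.83 and 2.51 over the 6 classes. Cela2a was at 2.38 in beta-like cells and Cela3b at 1.85. Cela1 was at 1.46 in beta-like and 0.721 in delta-like cells, neither past the limit. Cpa1 was at 1.42 and Cpb1 at 1.98 in beta-like cells.

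Lipases were among the members with the highest ratios. Clps had the highest ratio of all measured members in endothelial-like (18.2, 11.0 to 32.4), macrophage-like (5.45, 3.67 to 8.39) and PP-like cells (4.16, 2.86 to 6.17), and in delta-like cells Dmbt1 did (6.002, 3.16 to 12.6), on 11 and 72 UMIs of which 1 CDS cell held 65. Clps went from 5.05 to 18.8 CPM in beta-like cells (3.71-fold, 3.33 to 4.14), and Pnlip from 8.05 to 29.0 (3.60-fold, 3.31 to 3.93). In endothelial-like cells Clps had 16 and 270 UMIs, and 2 cells held 50% of the latter. Its ratio over cells under 1% was 8.88 there and 9.32 in macrophage-like cells.

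Zg16 and Sycn were higher in CDS beta-like cells, at 3.80-fold and 2.73-fold. Spink1 had the lowest ratio in beta-like (0.361, 0.304 to 0.427), alpha-like (0.585, 0.402 to 0.848), delta-like (0.589, 0.423 to 0.817) and PP-like cells (0.404, 0.202 to 0.766). The delta-like value compares mostly 1 cell with 1 cell, as 1 saline cell held 69 of 98 Spink1 UMIs and 1 CDS cell 44 of 63. In beta-like cells Spink1 went from 6.14 to 2.21 CPM, and its ratio in those under 1% was 0.553. Amy1 was between the limits in beta-like cells at 0.681 (0.572 to 0.810), in alpha-like at 1.17 and in delta-like at 0.946, and lower in PP-like cells at 0.601. Try5 and Spink1 were thus the members called lower in beta-like and alpha-like cells. In those under 1%, Try5 was within the 1.5-fold limit in each of these classes. Try5 and Spink1 also took a smaller share in the CDS high-share cells, a comparison of the same 2 libraries.

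**Figure D5:**
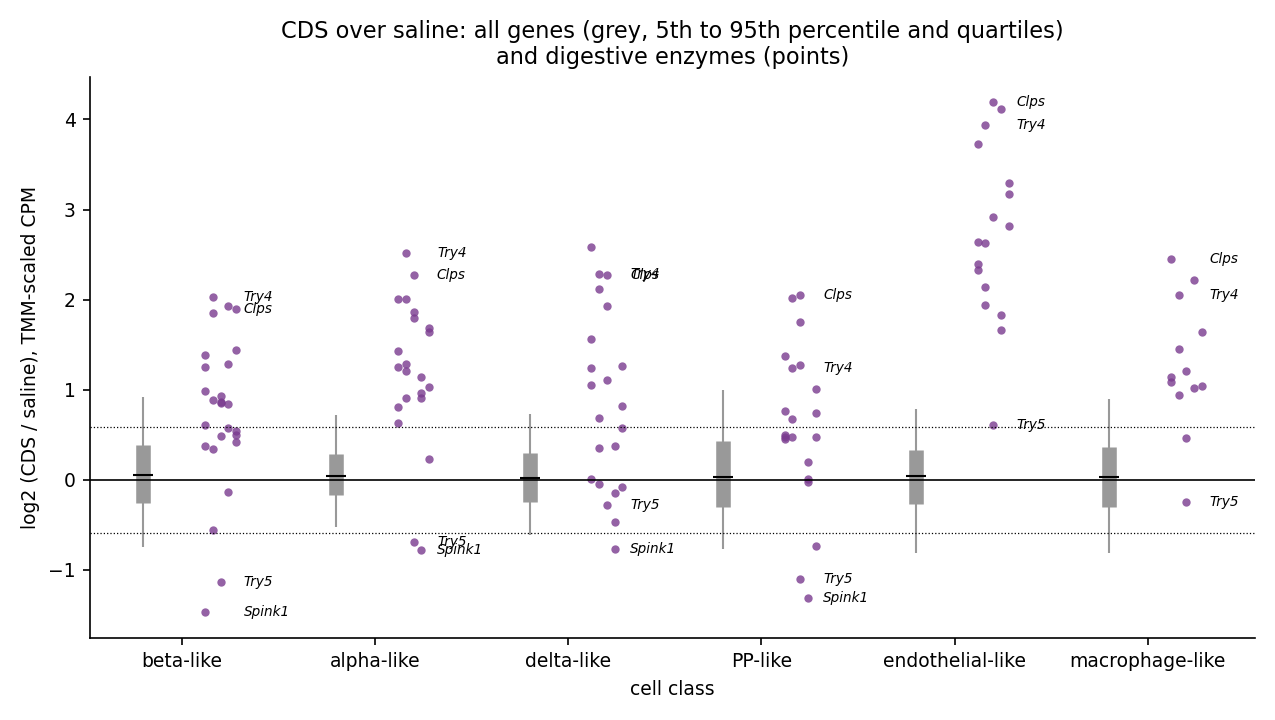
Points give log2 of CDS over saline (TMM-scaled CPM) for each measured enzyme gene in 6 cell classes, beside the 5th to 95th percentile, quartiles and median of all measured genes in grey. Dotted lines mark 1.5-fold. Most enzymes lie above the median of all genes, Spink1 is lowest where it was measured and Try5 in endothelial-like and macrophage-like cells, and Clps is among the 3 highest in each class.

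Other secreted acinar genes, from a list of 20 of which 18 are in the files, were also compared. In high-share cells they summed to 3.05% of UMIs in saline and 7.74% in CDS, and 13 had at least 20 UMIs there in a library. Reg1, a secreted lectin of acinar cells, stood at 17821 and 32870 CPM, Reg2 at 2965 and 12969, and Reg3b at 4719 and 22582. In beta-like cells 8 of 10 measured genes of the list were higher in CDS and none lower (median log2 ratio 1.03). Of all measured genes there, 14.8% were higher and 8.86% lower. In alpha-like cells it was 5 of 6 and none, against 8.76% and 3.79% of all measured genes. In CDS delta-like cells 1 cell held 566 of 747 Reg1 UMIs. Reg1 had 1041 and 2162 UMIs in beta-like cells (2.02-fold, 1.88 to 2.18), Reg2 174 and 1091 (6.11-fold, 5.20 to 7.21) and Reg3b 407 and 1199 (2.87-fold, 2.56 to 3.22).

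The regulators and granule machinery of acinar cells were measured less clearly. Of 12 listed genes 6 had at least 20 UMIs in high-share cells of a library. Nupr1, a stress-induced nuclear protein, took 29974 and 21187 CPM there, and Xbp1, a secretory pathway transcription factor, 239 and 197. Both were also found in beta-like cells, Nupr1 at 746 and 917 plain CPM, so these genes do not mark acinar RNA alone. In beta-like cells 2 of 7 measured genes of this list were higher in CDS and none lower (median log2 ratio 0.13). Of all measured genes there, 14.8% were higher and 8.86% lower, and 7 genes are too few to set apart from these shares.

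Hormone RNA in cells that do not make it rested in part on single cells. In endothelial-like cells Ins2, the insulin gene that leads islet RNA, was 2.04-fold in CDS, Ins1 2.18-fold, Iapp 2.30-fold and Gcg, the glucagon gene, 2.72-fold, while Sst was at 0.434 and Ppy at 1.12. There 5 CDS cells held 50% of the Ins2 UMIs, 1 CDS cell held 954 of 2181 Gcg UMIs, and 1 saline cell held 282 of 715 Sst UMIs. In macrophage-like cells Ins2 was at 1.30, Ins1 at 1.68, Iapp at 1.77, Gcg at 2.10 and Ppy at 0.290. A single saline cell held 1275 of the 1754 Ppy UMIs, and a single CDS cell 766 of the 1602 Gcg UMIs. In beta-like cells, which make it, Ins2 was at 1.46.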

How the data were processed

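Single-cell RNA of 2 islet libraries was analysed. Values are raw UMI counts per gene and barcode as the authors deposited them, made with Cell Ranger 7.1.0 per the file headers. Build mm10, edgeR (no version), Seurat 4 and Cell Ranger 7.1 stand in the submitters' processing notes. Neither the gene annotation nor the counting of intron reads is stated in the labels, and the protocol names both v3.1 and v2 chemistry. Total depth was 124343325 UMIs in saline and 141191447 in CDS.

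Barcodes with 500 genes, 1000 UMIs and at most 20% mitochondrial UMIs were kept. Doublets were called with Scrublet (Scanpy 1.11.5, expected 0.8% per 1000 barcodes) and removed, and no high-share barcode was among them. Cells were log-normalised and clustered jointly (1962 variable genes after enzyme and acinar genes were left out, 30 components, 15 neighbours, Leiden resolution 1), and 22 clusters were named from markers. UMIs were summed per class and library and scaled with TMM (edgeR 4.0.16). Alternatives included DESeq2 1.42.0 factors. With 1 library in each group no p-value was computed. Intervals are exact Poisson, conditional Poisson or Clopper-Pearson at 95%, and UMIs correct for PCR copies but not for shared capture. Gene positions came from GENCODE vM21, which matched 32158 of 32285 gene IDs.

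Named genes were the 12 most abundant members, every member apart from the mix, and the highest and lowest ratio of each class, with hormones and list genes at 20 UMIs or more. Members and lists were chosen with earlier results of these data known. Scripts were tested on simulated data. Other tools were R 4.3.3, matplotlib 3.10.9, Python 3.11.15, igraph 0.11.9, NumPy 2.4.6, leidenalg 0.10.2, SciPy 1.17.1 and pandas 2.3.3.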

Additional observations from a re-analysis of the deposited data

Results flagged for a closer look

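Summed over all cells of a class, Try5 moved in opposite directions in different classes. Its CDS over saline ratio was 1.525 in endothelial-like cells and 0.455 in beta-like cells, past the 1.5-fold limit on opposite sides, and the difference was not tested. In endothelial-like cells under 1% enzyme RNA the ratio was 0.943 (0.736 to 1.21). In beta-like cells under 1% it was 0.725 (0.688 to 0.7645), so neither class was past the limit there. Of the 4522 saline beta-like cells, 9 held 50% of the Try5 UMIs, and 1 CDS endothelial-like cell held 64 of 206.

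Many enzyme-rich barcodes lay outside the filter and entered no comparison. At least 20% of UMIs came from the 32 genes in 81 saline and 171 CDS barcodes that failed it, more than the 46 and 32 that passed. All of them had fewer than 500 genes, and their median was 774 UMIs and 267 genes in saline and 724 UMIs and 237 genes in CDS. They held 9.35% of all enzyme UMIs of the saline library and 12.3% of those of the CDS library. Try5 made up 18.4% of enzyme UMIs in the saline barcodes and 4.94% in the CDS ones, and Try4 5.33% and 7.53%.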

How the results depend on the processing

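No paired analysis was possible because each group had 1 library. The share of kept cells that were high-share, 0.419% in saline, was 1.068% with a looser filter, 0.2593% with a stricter one, 0.6468% at a limit of 10% and 0.2186% at 40%. In CDS it was 0.520%, and 2.791%, 0.33% and 0.3247% with the looser filter, the stricter one and the 40% limit. The share of enzyme UMIs in saline beta-like cells, 0.0396%, was 0.03048% and 0.03623% with the looser and stricter filters, 0.0404% and 0.02954% at Leiden resolution 0.5 and 2, and 0.02842% at the 10% limit. In cells under 1% it was 0.02372%, and without beta-like cluster 12 it was 0.03896%, both chosen after seeing the data. In CDS it was 0.0473%, and 0.04455%, 0.04602%, 0.04884%, 0.04572% and 0.04679% in the same planned order, 0.0503% at the 40% limit, 0.04799% with called doublets kept, 0.03857% under 1% and 0.04559% without cluster 12. In saline beta-like cells 1 gene, not 3, stood apart from the mix in cells under 1%. Members higher in CDS were 23 (10% limit), 9 (plain CPM) and 8 (2-fold) in beta-like cells instead of 15. In delta-like cells they were 19 (stricter) and 3 (40% limit) instead of 12. In PP-like cells they were 4 (looser), 6 (stricter), 19 (40% limit), 16 (under 1%) and 6 (200 UMIs) instead of 10. In endothelial-like cells they were 9 (40% limit) and 10 (200 UMIs) instead of 17, and in macrophage-like cells 19 (no low filter) and 3 (200 UMIs) instead of 11. The summed ratio turned to 0.5735 in delta-like cells (40% limit) and 0.9642 in PP-like cells (looser filter). Fewer genes were measured at 200 UMIs, and otherwise the cause was not tested. The share of all genes past the limit at each setting is not given beside the counts of members. Those counts therefore describe the settings and are not read as results about the enzymes. PP-like cells had no value with doublets kept or at resolution 0.5, where no cluster took that name. With 1 library in each group, depth, batch and treatment cannot be told apart, and a few barcodes set the sums of small classes.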
